A study of Mus musculus with 15 samples.

Results

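Hemoglobin and erythrocyte genes were examined in mouse RPE/choroid RNA, that is, in the pigmented epithelium behind the retina (RPE) and the vessel-rich choroid on which it rests. The 6 genes, Hba-a1, Hba-a2, Hbb-bs, Hbb-bt, Alas2 and Slc4a1, were taken by name from the 40481 genes of the deposited count table, in all 15 libraries. They are a fixed set of names, chosen without a threshold on their values, and all 6 were abundant enough to be tested. The question the series raises is what follows in this tissue when cells that use the p16Ink4a promoter are removed.

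The 8 INK-ATTAC libraries came from mice that carried the INK-ATTAC transgene on an Abca1/Abcg1 flox/flox LysM-Cre background and were treated with AP20187. The 7 control libraries came from Abca1/Abcg1 flox/flox LysM-Cre mice without the transgene, labelled with the same intraperitoneal drug. All mice therefore shared floxed genes for the cholesterol exporters Abca1 and Abcg1 together with LysM-Cre, which makes the recombinase from the Lyz2 locus in myeloid cells. In INK-ATTAC mice the promoter of p16Ink4a, an inhibitor of the cell cycle that senescent cells express, drives an FKBP-caspase 8 fusion protein, and AP20187 joins these proteins into active pairs that kill the cell. For the transgenic mice the submitters describe an injection on alternate days over 3 months. The labels give no age, do not say whether the eyes were cleared of blood, and do not state that the libraries are from different animals, so p-values measure only the spread between these samples, which may be technical.

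Hemoglobin is built from a pair of alpha-globin and a pair of beta-globin chains, each of which holds a heme group. In the adult mouse Hba-a1 and Hba-a2 encode the alpha chain, and Hbb-bs and Hbb-bt encode the beta chain. Alas2 encodes the erythroid form of the first enzyme of heme synthesis, and Slc4a1 encodes band 3, the chloride and bicarbonate exchanger of the red cell membrane. Mature mammalian red cells have no nucleus, but reticulocytes, the youngest circulating red cells, still carry globin mRNA. In a bulk sample of a vessel-rich tissue, fewer cells of a type and less RNA per cell cannot be told apart.

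Total counts per library lay between 47954634 and 65065950 in INK-ATTAC libraries and between 39121503 and 59974025 in controls. RNA encoded by the mitochondrial genome took 2.26% to 3.67% of counts over all libraries. The labelled tissue was checked against 11 RPE markers, none of which was at 0. Their summed level was 78552 to 101110 CPM (counts scaled to a library size of 1000000, with TMM factors) in INK-ATTAC libraries and 71383 to 91776 CPM in controls. Neighbouring eye tissue was also present in uneven amounts. The 10 rod genes summed to 101 to 2039 CPM in INK-ATTAC libraries and 481 to 2262 CPM in controls, with 10 of 10 estimates below 0. The 10 lens genes, 7 of them tested, summed to 20.1 to 2236 CPM in INK-ATTAC libraries and 20.4 to 558 CPM in controls. Of these, 7 of 7 estimates were above 0, 6 at an unadjusted edgeR p under 0.05 and 0 past the threshold after adjustment. Over all genes tested, 2.2% were higher at that unadjusted p. With the rod level added to the edgeR fit, the log2 fold change of Hbb-bs was -0.35, against -0.46 without it. None of the 6 genes passed the threshold in that fit. Apart from this and the list correlations given below, the part of these tissues in the globin values was not tested. The X-linked noncoding RNA Xist split the libraries into a low class, INK-ATTAC 1 to 4 and controls 1 to 3, and a high class, INK-ATTAC 5 to 8 and controls 4 to 7. No library stood out as a copy of another.

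The globin genes come in near-identical pairs, which bears on what a count for one gene of a pair means. The coding sequences of Hba-a1 and Hba-a2, each of 429 bases, differ at 1 base, C381T, and those of Hbb-bs and Hbb-bt, each of 444 bases, differ at 1 base, C417T. Positions are counted from 1 at the first base of the start codon, with the base of the first-named gene before the position and that of its partner after it. The coding stretches that end at these bases show how little separates the pairs. They come from the GENCODE annotation of GRCm38 in coding direction, lie within coding exons, and have the differing base in capitals. Their places are 11:32284284-32284343 on the plus strand for Hba-a1, 11:32297101-32297160 on the plus strand for Hba-a2, 7:103826692-103826751 on the minus strand for Hbb-bs and 7:103812683-103812742 on the minus strand for Hbb-bt.
Hba-a1: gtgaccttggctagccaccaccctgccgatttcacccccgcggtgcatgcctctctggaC
Hba-a2: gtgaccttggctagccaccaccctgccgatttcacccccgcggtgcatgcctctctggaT
Hbb-bs: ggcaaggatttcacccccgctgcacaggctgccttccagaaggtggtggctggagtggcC
Hbb-bt: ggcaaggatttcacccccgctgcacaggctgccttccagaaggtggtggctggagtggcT

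Within each pair a read that covers none of the differing bases can be assigned to either gene. Of all 50-base stretches of the Hba-a1 transcript, 67.5% also occur in that of Hba-a2, and 86.9% of those of Hba-a2 occur in Hba-a1. For the beta pair, 65.8% of the 50-base stretches of Hbb-bs occur in Hbb-bt and 58.3% of those of Hbb-bt occur in Hbb-bs. How the authors' counting treated shared reads is not given in the sources used here. Each single globin value is therefore uncertain within its pair, and sums over a pair are given beside them.

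The windows before the RefSeq transcription start show letters that the coexpressed genes share there. RefSeq promoter windows of the build GRCm38.p6 were at hand for Hba-a1, Hba-a2, Hbb-bs, Hbb-bt and Alas2. Each was searched on both strands, over the 250 bases before the RefSeq start, for GATAA (the core letters of GATA factor sites), CCNCNCCC (a CACC-type element) and TATAA. The windows of Hba-a2 at 11:32296242-32296491 on the plus strand, Hbb-bs at 7:103827929-103828178 on the minus strand and Alas2 at X:150547167-150547416 on the plus strand stand for the alpha chain, the beta chain and heme synthesis. They are written in the direction of transcription, with the matches in capitals. GENCODE starts some of these genes further upstream, so 168 of the 250 bases of the Hbb-bs window, 42 of those of Alas2 and 3 of those of Hba-a2 lie within the GENCODE gene.
Hba-a2: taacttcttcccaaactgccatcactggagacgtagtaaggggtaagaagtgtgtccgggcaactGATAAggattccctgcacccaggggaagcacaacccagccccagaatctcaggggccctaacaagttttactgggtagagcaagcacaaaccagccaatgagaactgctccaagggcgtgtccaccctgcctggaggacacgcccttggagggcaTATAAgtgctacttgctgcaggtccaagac
Hbb-bs: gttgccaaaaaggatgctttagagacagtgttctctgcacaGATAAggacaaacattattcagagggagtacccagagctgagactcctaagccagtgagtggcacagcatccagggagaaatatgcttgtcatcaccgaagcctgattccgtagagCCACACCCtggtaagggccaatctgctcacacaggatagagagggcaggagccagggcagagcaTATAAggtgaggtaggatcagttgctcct
Alas2: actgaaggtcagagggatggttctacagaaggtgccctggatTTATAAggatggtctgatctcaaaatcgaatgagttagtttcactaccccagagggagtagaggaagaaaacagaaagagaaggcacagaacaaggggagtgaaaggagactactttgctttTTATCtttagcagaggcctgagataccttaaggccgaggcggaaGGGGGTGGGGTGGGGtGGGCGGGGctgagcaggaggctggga

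GATAA occurred once in each of the 5 windows, against 22.6% of 32851 RefSeq promoter windows of the same length. It began at -185 from the start in Hba-a2 and at -209 in Hbb-bs, and lay on the opposite strand at -86 in Alas2. TATAA lay at -30 in Hba-a2 and at -29 in Hbb-bs, and in Alas2 its 2 matches, one on each strand, overlapped at -208 and -207. TATAA is found in 22.8% of all windows. CCNCNCCC had 1 match in Hbb-bs, at -93, 1 in Hbb-bt, at -107, 4 in Alas2, some of which overlap, and none in either Hba window. It occurs in 45.9% of all windows. The RefSeq entries of Hba-a1 and Hba-a2, which add 50 bases after the start to the 250 before it, are the same sequence over the 297 bases compared at an offset of 3 bases, so they count as 1 sequence and not as 2. A match describes the letters and is not evidence of a bound factor.

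Together the 4 globin genes took between 0.0106% and 0.162% of counts in INK-ATTAC libraries, with a mean of 0.0690 ± 0.0490% (SD, n = 8), and between 0.0246% and 0.191% in controls, with a mean of 0.0921 ± 0.0599% (SD, n = 7). Hbb-bs ranked 120 among all genes by count in control 1, and 3065 in INK-ATTAC 2. Globin RNA was thus a small and very uneven share of the RNA of these samples.

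Level per transcript length was compared as CPM per kilobase of exon, averaged over all 15 libraries. Hbb-bs had 431 CPM per kilobase, Hba-a1 262, Hba-a2 207 and Hbb-bt 170, against 5.21 for Alas2 and 0.0749 for Slc4a1. Hbb-bs was above Hba-a1, and Hba-a1 above Hba-a2, in 15 of 15 libraries, while Hba-a2 was above Hbb-bt in 14 of 15. The SD over libraries was 186 CPM per kilobase for Hba-a1 and 140 for Hba-a2. The globins largely share this spread, so it does not measure how far they differ within a library. Within a library the median ratio was 1.64 for Hbb-bs over Hba-a1, 1.23 for Hba-a1 over Hba-a2 and 1.21 for Hba-a2 over Hbb-bt. These differences were not tested. More of the 50-base stretches of Hba-a2 (86.9%) than of Hba-a1 (67.5%) occur in the partner gene. The order of the globin genes may therefore depend on how shared reads were counted. The step from Hbb-bt to Alas2 was 32.6-fold and that from Alas2 to Slc4a1 was 69.5-fold between these means.

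Hba-a1 (chromosome 11, 32283511 to 32284465, plus strand, GRCm38) is one of the adult alpha-globin genes. It had 27.9 CPM in the lowest INK-ATTAC library, a median of 160.9 CPM and 453.5 CPM in the highest, against a lowest value of 66.5, a median of 185.6 and a highest value of 519.8 CPM in controls. INK-ATTAC 2 and INK-ATTAC 5 lay below every control and the other 6 INK-ATTAC libraries lay within the control range. The means were 182.9 ± 134.7 CPM in INK-ATTAC libraries and 247.3 ± 171.2 CPM in controls (SD, n = 8 and n = 7).

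Its partner Hba-a2 (chromosome 11, 32296489 to 32297298, plus strand) had 20.3 CPM in the lowest INK-ATTAC library, a median of 109.4 and 302.7 CPM in the highest, against 44.6, 128.7 and 316.2 CPM in controls. The same INK-ATTAC libraries, 2 and 5, were below all controls. Its level averaged 121.3 ± 89.6 CPM in INK-ATTAC libraries and 157.3 ± 101.5 CPM in controls (SD, n = 8 and n = 7).

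Hbb-bs (chromosome 7, 103826534 to 103828096, minus strand), the most abundant of the 6, encodes an adult beta-globin chain. INK-ATTAC libraries held between 48.6 and 635.3 CPM, with a median of 259.6, and controls held between 88.5 and 842.2 CPM, with a median of 306.9. Here too INK-ATTAC 2 and 5 were the lowest libraries of all and control 1 the highest. The means were 281.5 ± 195.2 CPM in INK-ATTAC libraries and 387.3 ± 261.4 CPM in controls (SD, n = 8 and n = 7).

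Hbb-bt (chromosome 7, 103812524 to 103813996, minus strand) is the other adult beta-globin gene. It lay between 15.3 and 243.4 CPM in INK-ATTAC libraries, with a median of 89.9, and between 32.3 and 286.6 CPM in controls, with a median of 115.4. The groups overlapped as they did for the other globins, and the mean was 102.8 ± 75.3 CPM in INK-ATTAC libraries and 138.4 ± 87.5 CPM in controls (SD, n = 8 and n = 7).

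Alas2 (X chromosome, 150547375 to 150570638, plus strand), whose enzyme commits the red cell precursor to heme synthesis, was measured far above the counting floor in every library, with 96 to 908 counts in INK-ATTAC libraries and 244 to 1953 counts in controls. In CPM it lay between 2.02 and 19.0 in INK-ATTAC libraries, with a median of 9.47, and between 4.50 and 39.8 in controls, with a median of 12.5. INK-ATTAC 2 and 5 were again the lowest and control 1 the highest. Apex2, a DNA repair nuclease gene annotated on the opposite strand, shares 311 of the 2403 exon bases of Alas2, and without a stated strand setting reads there cannot be told apart. Apex2 had 5.90 ± 1.18 CPM in INK-ATTAC libraries and 6.18 ± 1.06 CPM in controls (SD, n = 8 and n = 7). Apex2 varied 1.77-fold over all libraries, where Alas2 varied 19.7-fold.

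Slc4a1 (chromosome 11, 102348824 to 102366203, minus strand) was sparse. INK-ATTAC libraries 1 to 8 held 9, 0, 8, 19, 20, 13, 13 and 25 counts, and controls 1 to 7 held 51, 19, 55, 4, 12, 3 and 34 counts. Its absence in INK-ATTAC 2 allows up to 0.0631 CPM, by the limit of 3 counts that a count of 0 leaves, which covers counting error only. Controls 1 and 3 stood above all other libraries and the rest of the 2 groups overlapped. The means were 0.257 ± 0.152 CPM in INK-ATTAC libraries and 0.492 ± 0.407 CPM in controls (SD, n = 8 and n = 7).

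**Figure D1:**
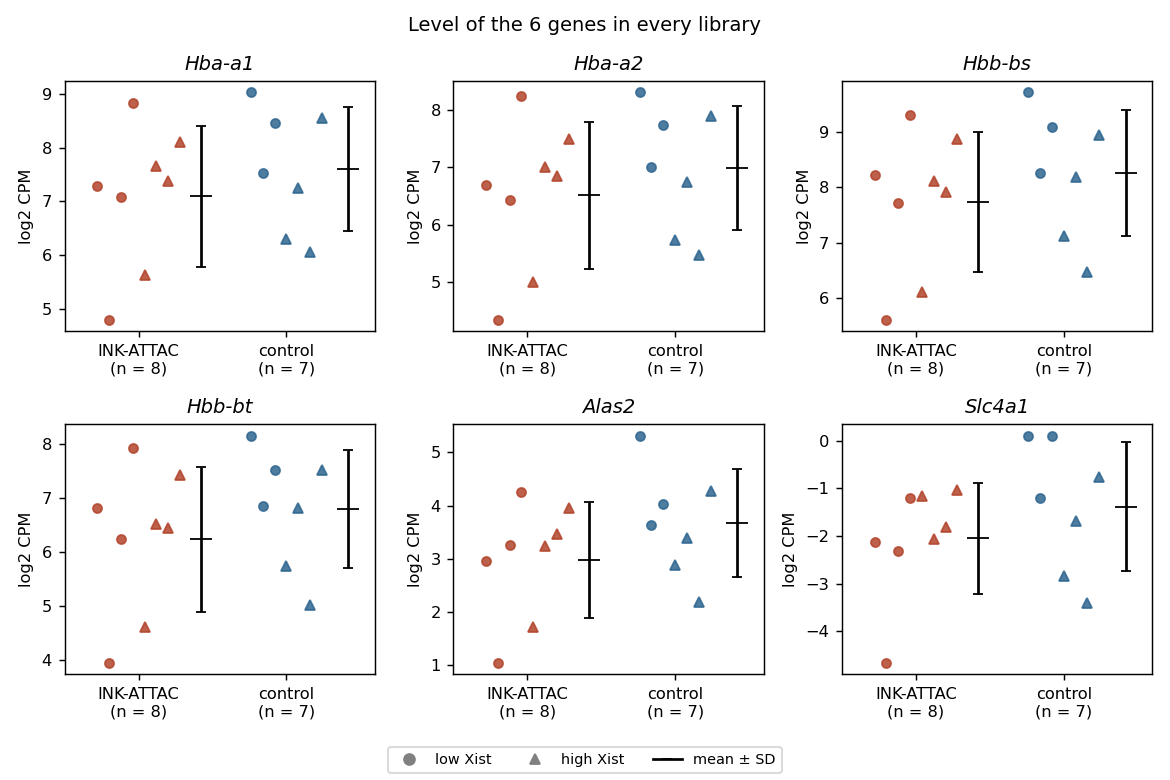
Log2 CPM of each of the 6 genes (vertical axis) in the INK-ATTAC libraries and the controls (horizontal axis), 1 point per library, with circles for low and triangles for high Xist and bars for the mean ± SD. In all 6 panels INK-ATTAC 2 is the lowest point and control 1 the highest, and the groups overlap.

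None of the 6 genes passed the test for a difference between the groups (edgeR quasi-likelihood test, two-sided, Benjamini-Hochberg adjustment over 17991 genes, threshold 0.05, adjusted p = 1.00 for each). No gene of the table passed that test, a background of 0.0%, and at an unadjusted p under 0.05 the share over all genes was 4.14%, made of 1.94% lower and 2.2% higher, with 0 of the 6 members among them. DESeq2 called 8 of 29991 genes, which is 0.0267%, and none of the 6. The log2 fold change of INK-ATTAC over control was -0.44 for Hba-a1 (SE 0.51, 95% interval -1.50 to 0.63) and -0.38 for Hba-a2 (SE 0.49, -1.41 to 0.66). For the beta chains it was -0.46 for Hbb-bs (SE 0.50, -1.50 to 0.58) and -0.43 for Hbb-bt (SE 0.50, -1.48 to 0.63). Alas2 had -0.70 (SE 0.45, -1.64 to 0.24) and Slc4a1 had -0.94 (SE 0.59, -2.17 to 0.30).

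All 6 estimates were below 0, as were those of 50.2% of all genes tested. The 6 move together over the libraries, as shown next, so they are not 6 separate observations of a direction. Counts summed over a pair do not depend on how reads were split between its genes, although reads that the counting may have discarded as shared would be missing from the sum too. The alpha pair then had a log2 fold change of -0.41 (SE 0.50, 95% interval -1.47 to 0.64) and the beta pair of -0.45 (SE 0.50, -1.50 to 0.59), each with an edgeR adjusted p of 1.00. A lower, an equal and a higher globin level in INK-ATTAC libraries all lie within these intervals. Single libraries moved the estimates by more than 1.5 times. That of Hbb-bs was -0.16 without control 1 and -0.76 without INK-ATTAC 4, and that of Alas2 was -0.29 without control 1.

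The authors' deposited table of the same comparison lists Hba-a1, Hba-a2, Hbb-bs, Hbb-bt and Alas2, and not Slc4a1. Log2 fold changes in the authors' deposited table are -0.50 for Hba-a1, -0.47 for Hba-a2, -0.44 for Hbb-bs, -0.46 for Hbb-bt and -0.69 for Alas2, with adjusted p-values from 0.820 to 0.879. Of 14442 genes in the authors' deposited table, 3 (0.0208%) are under an adjusted p of 0.05.

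Across libraries the 4 globin genes varied almost as one. The highest library held 15.6 to 18.8 times the CPM of the lowest, and INK-ATTAC 2 was the lowest and control 1 the highest library for all 6 genes. Log2 CPM of the globin pairs correlated over the 15 libraries at Pearson's r of 0.985 to 0.999 (Spearman's rho 0.954 to 1.00). Alas2 followed each globin at r of 0.966 to 0.968 (rho 0.936 to 0.954). For these pairs the adjusted p over 15 pairs was at most 3e-05 by 100000 permutations, whose smallest raw p is 1e-05. The members share library and depth, and reads within each globin pair.

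Slc4a1 followed less closely, at r of 0.799 to 0.819 with the globins (rho 0.768 to 0.782, permutation test, adjusted p at most 0.00123). Without INK-ATTAC 2 and INK-ATTAC 5, the libraries farthest from the median globin level, r was 0.906 to 0.930 for Slc4a1 with the globins, 0.927 to 0.934 for Alas2 with the globins and 0.970 to 0.998 among the globins. Between Alas2 and Slc4a1, r was 0.81 (rho 0.80, adjusted permutation p = 0.00039). It was 0.59 without INK-ATTAC 2 and control 1, the libraries farthest from the median Alas2 level. INK-ATTAC 5 was kept in that set but left out of the values with the globins, so the 2 sets cannot be compared directly.

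Within the groups Hbb-bs and Hba-a1 correlated at 0.990 in the 8 INK-ATTAC libraries and at 0.984 in the 7 controls. Hbb-bs and Alas2 correlated at 0.974 in INK-ATTAC libraries and at 0.969 in controls. For Hbb-bs and Slc4a1 they were 0.64 in INK-ATTAC libraries and 0.980 in controls, a difference that was not tested. INK-ATTAC 5 stands apart there: it was second lowest of all libraries for each globin and Alas2, yet its 20 counts of Slc4a1 were above the INK-ATTAC median. It had 125.8 counts of Slc4a1 per 1000 counts of Alas2, where the other libraries had between 0 and 63.2.

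**Figure D2:**
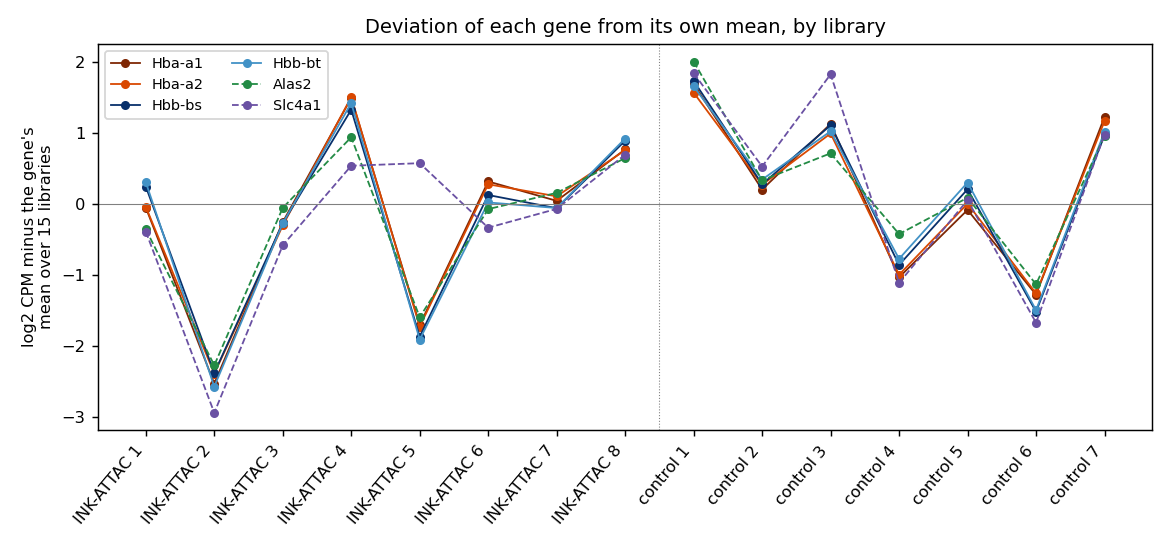
Log2 CPM of each gene minus that gene's own mean over 15 libraries (vertical axis), for every library with INK-ATTAC libraries left of the controls (horizontal axis), 1 line per gene. The globin lines lie nearly on top of one another and Alas2 follows them, while Slc4a1 leaves them in INK-ATTAC 5.

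**Figure D3:**
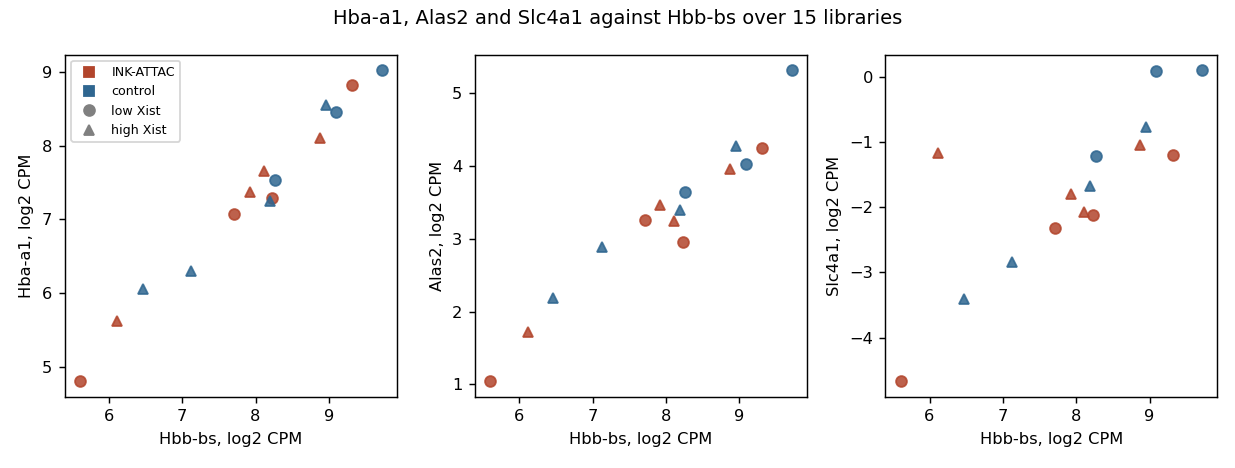
Log2 CPM of Hba-a1, Alas2 and Slc4a1 (vertical axes) against log2 CPM of Hbb-bs (horizontal axes), 1 point per library, coloured by group and shaped by Xist class. The points of Hba-a1 and Alas2 lie along a line and 1 INK-ATTAC library, replicate 5, lies far above the others of its Hbb-bs level for Slc4a1.

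Ratios within a library set aside how much globin RNA it held. The beta to alpha ratio of counts lay between 1.09 in control 6 and 1.59 in INK-ATTAC 1. On the log2 scale it was 0.34 ± 0.18 in INK-ATTAC libraries (SD, n = 8) and 0.38 ± 0.19 in controls (SD, n = 7), a difference of -0.04 (two-sided exact permutation test over 6435 splits, p = 0.674, adjusted p over 3 ratios 0.674). Hbb-bt made up 26.2 ± 1.23% of beta-globin counts in INK-ATTAC libraries (SD, n = 8) and 26.7 ± 1.00% in controls (SD, n = 7; exact permutation p = 0.363, adjusted 0.674). Hba-a2 made up 40.05 ± 1.02% of alpha-globin counts in INK-ATTAC libraries (SD, n = 8) and 39.6 ± 1.49% in controls (SD, n = 7; exact permutation p = 0.484, adjusted 0.674). Globin RNA varied more than 15-fold between libraries, while the share within the pair stayed within 23.9% to 27.7% for Hbb-bt and 37.6% to 42.1% for Hba-a2. How shared reads were counted is not known, so these shares may be set in part by the counting. This was not tested. Alas2 had 18.7 to 34.7 counts per 1000 beta-globin counts in INK-ATTAC libraries and 22.2 to 38.2 in controls.

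**Figure D4:**
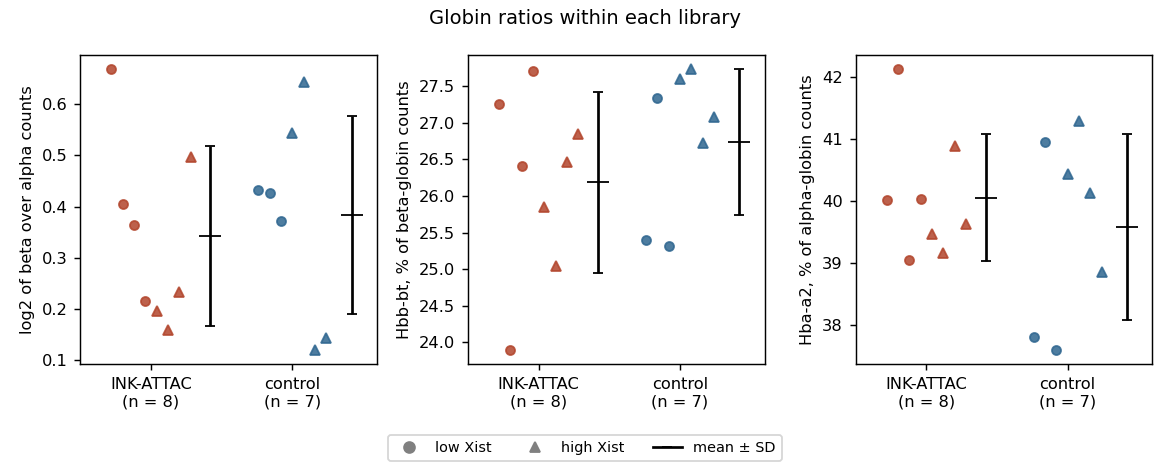
The log2 ratio of beta to alpha globin counts, the percent of beta-globin counts from Hbb-bt and the percent of alpha-globin counts from Hba-a2 (vertical axes) by group (horizontal axes), 1 point per library, with circles for low and triangles for high Xist and bars for the mean ± SD. The groups overlap in each panel, with log2 ratios between 0.12 and 0.67.

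The 2 Xist classes were compared because Alas2 is X-linked and the classes are nearly balanced between groups. In low Xist libraries the log2 fold change was -0.87 for Hba-a1, -0.77 for Hba-a2, -0.92 for Hbb-bs, -0.81 for Hbb-bt and -1.26 for Alas2. In high Xist libraries it was 0.03, 0.03, 0.05, -0.03 and -0.10 for the same genes in the same order. Fold changes below 0 were found for 49.7% of all genes in low Xist and 50.1% in high Xist libraries. The difference between classes, tested as an interaction in edgeR, lay between 0.79 and 1.17 for these genes, with adjusted p-values of at least 0.876, so no difference between the classes was shown.

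Among the 6 genes Slc4a1 had the widest gap between classes. In low Xist libraries it averaged 0.188 ± 0.163 CPM in INK-ATTAC (SD, n = 4) and 0.821 ± 0.369 CPM in controls (SD, n = 3), which gave a log2 fold change of -2.12 (SE 0.78, 95% interval -3.87 to -0.37, edgeR adjusted p = 0.974). In high Xist libraries it averaged 0.326 ± 0.121 CPM in INK-ATTAC (SD, n = 4) and 0.245 ± 0.225 CPM in controls (SD, n = 4), which gave a log2 fold change of 0.37 (SE 0.64, -1.05 to 1.79, adjusted p = 0.965). Its interaction was 2.49 (SE 1.07, 95% interval 0.21 to 4.77), with an unadjusted p of 0.0343 and an edgeR adjusted p of 0.876. At an unadjusted p under 0.05, 4.77% of all genes tested had an interaction, beside 1 of the 6 members. Within the low Xist libraries 1 of the 6, Slc4a1, was lower at an unadjusted p under 0.05, beside 2.31% of all genes, and within the high Xist libraries 0 of the 6 were, beside 2.22%. The Slc4a1 values rest on 0 to 55 counts per library.

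**Figure D5:**
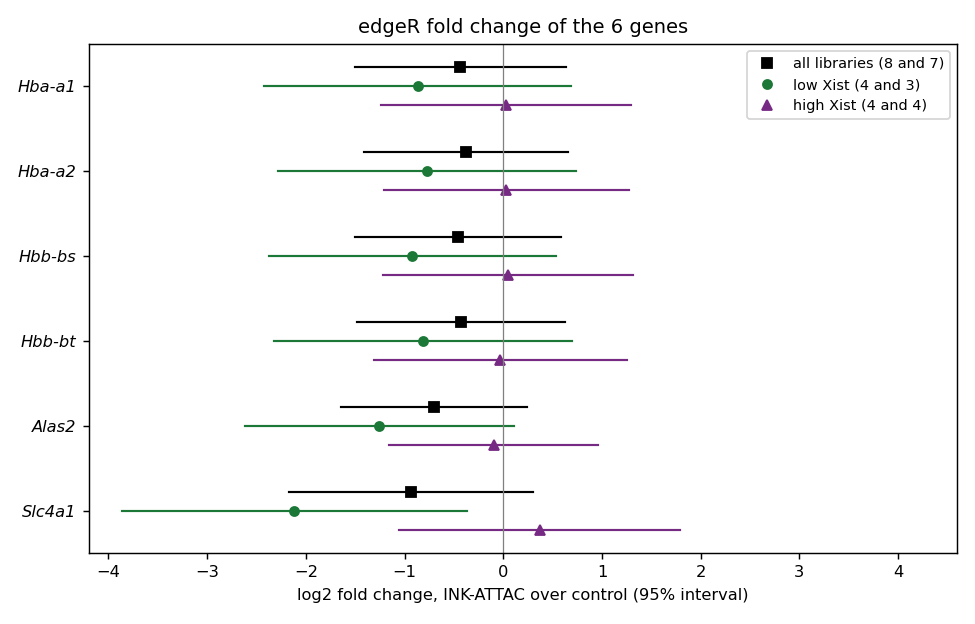
Log2 fold change of INK-ATTAC over control with its 95% interval (horizontal axis) for the 6 genes (vertical axis), over all libraries and in low and high Xist libraries alone. Every interval includes 0 except that of Slc4a1 in low Xist libraries, -3.87 to -0.37, which does not pass the threshold after adjustment over all genes.

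Genes of other steps of red cell biology were then examined through lists. None of the genes in any of these lists passed the edgeR threshold, so the counts below give the sign of estimates only, beside a median log2 fold change of -0.00097 over all genes. Of the other globins and the globin chaperone, 7 of 8 were in the table and 1 was tested. The embryonic globins Hba-x and Hbb-bh1, and Hbb-bh0, were at 0 in every library, and the embryonic Hbb-y had 0 to 25 counts per library and a log2 fold change of -0.29 (SE 0.54, edgeR adjusted p = 1.00).

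The 8 further enzymes of heme synthesis were all tested, with 6 estimates above and 2 below 0 and a median of 0.05. Alad, which makes porphobilinogen, was the most abundant, at 277.7 ± 23.2 CPM in INK-ATTAC libraries and 259.0 ± 24.1 CPM in controls (SD, n = 8 and n = 7). Alas1, the form of the first enzyme used outside the red cell lineage, had 90.1 ± 11.9 CPM in INK-ATTAC libraries and 83.4 ± 12.1 CPM in controls. Alas1 counts varied between 2800 and 5556 over the libraries and its level correlated with Hbb-bs at 0.07, where Alas2 correlated at 0.968.

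Of 17 red cell membrane genes, 11 were tested, with 6 estimates above and 5 below 0 and a median of 0.03. The 3 most abundant, the surface protein gene Ermap and the membrane skeleton genes Tmod1 and Epb41, had log2 fold changes of -0.17, 0.03 and -0.01. These are also expressed outside red cells. Epb42 and Rhag, which encode a membrane skeleton protein and a Rh-associated glycoprotein of red cells, were chosen for naming after their values were seen. They had 100 and 42 counts over all libraries, did not pass the filter, and each had its highest count in control 1. Icam4 was at 0 throughout.

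Of 11 regulators of red cell development, 8 were tested, 3 with estimates above and 5 below 0, with a median of -0.06. The cofactor genes Ldb1 and Lmo2 and the erythropoietin receptor gene Epor were the most abundant, at log2 fold changes of 0.04, -0.08 and 0.02. Of 18 transcripts that maturing red cells retain, 15 were tested, 7 above and 8 below 0, with a median of -0.05. The 3 most abundant are expressed by many cell types. Gpx1, a glutathione peroxidase gene, had 730 ± 76.0 CPM in INK-ATTAC libraries and 695 ± 72.7 CPM in controls. The catalase gene Cat had 562 ± 62.4 CPM in INK-ATTAC libraries and 599.6 ± 37.4 CPM in controls, and Ucp2, a mitochondrial carrier gene, had 539.9 ± 42.6 CPM in INK-ATTAC libraries and 518 ± 101.7 CPM in controls.

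The 6 genes of iron uptake had 3 estimates on each side of 0 and a median of 0.00030. Tfrc, the transferrin receptor, had 29.0 ± 2.24 CPM in INK-ATTAC libraries and 33.2 ± 4.43 CPM in controls (SD, n = 8 and n = 7), a log2 fold change of -0.20 that did not pass (edgeR, adjusted p = 1.00). Slc11a2, a ferrous iron transporter gene, and Steap3, a ferrireductase gene, had log2 fold changes of -0.0036 (SE 0.06) and 0.0042 (SE 0.21). The 11 genes that clear free hemoglobin and heme had 3 estimates above and 8 below 0, with a median of -0.02. The heme transporter gene Slc48a1 was at 571 ± 39.3 CPM in INK-ATTAC libraries and at 573 ± 54.8 CPM in controls. The endocytic receptor gene Lrp1 and the biliverdin reductase gene Blvrb had log2 fold changes of -0.05 and 0.16.

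Mb, Cygb and Ngb, the globins of other cells, had log2 fold changes of 0.57 (SE 0.44), -0.11 (SE 0.22) and 0.19 (SE 0.22), none of which passed. Mb encodes the myoglobin of muscle, and a list of 10 skeletal muscle genes had 10 of 10 estimates above 0 and a median of 0.88. Of the 10, 4 were at an unadjusted edgeR p under 0.05, beside 2.2% of all genes higher at that p, and 0 were past the threshold. Their summed level was 582 to 2861 CPM in INK-ATTAC libraries and 235 to 2002 CPM in controls, and none was at 0. The level of that list correlated with Hbb-bs at -0.01 over the libraries. With that level added to the edgeR fit, the log2 fold change of Hbb-bs was -0.72, against -0.46 without it, and did not pass.

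Markers of other blood and vessel cells were set beside the globins. Over 12 endothelial markers, none at 0, the summed level was 354 to 667 CPM in INK-ATTAC libraries and 336 to 683 CPM in controls, with a median log2 fold change of -0.01. Over 13 platelet markers, of which 10 were tested, it was 29.9 to 56.8 CPM in INK-ATTAC libraries and 26.4 to 41.3 CPM in controls, with a median of 0.15. Over 10 neutrophil markers, of which 8 were tested, it was 15.6 to 23.0 CPM in INK-ATTAC libraries and 17.8 to 28.4 CPM in controls, with 8 of 8 estimates below 0 and a median of -0.21. The most abundant of these, Csf3r, the receptor gene for the growth factor of granulocytes, and Camp, a granule peptide gene, had log2 fold changes of -0.34 (SE 0.20) and -0.0063 (SE 0.20). Mmp8, a neutrophil collagenase, had 2.55 ± 0.51 CPM in INK-ATTAC libraries and 3.71 ± 0.91 CPM in controls, a log2 fold change of -0.54 (edgeR, adjusted p = 1.00). Over 10 lymphocyte markers it was 20.99 to 37.4 CPM in INK-ATTAC libraries and 20.5 to 49.4 CPM in controls, with a median of -0.18. With the endothelial level added to the edgeR fit, the log2 fold change of Hbb-bs was -0.39, against -0.46 without it, and did not pass. Apart from this fit and the list correlations given below, the part of these blood and vessel cells in the globin values was not tested.

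Correlations of Hbb-bs with the mean level of 15 lists were added after the data had been seen. The red cell membrane list came highest, at r of 0.64 (rho 0.66, permutation test, adjusted p over 15 lists 0.153), and the platelet list next, at 0.55 (rho 0.59, adjusted p = 0.257). Neither passed. The endothelial list stood at -0.01, the RPE list at 0.13, the rod list at 0.32 and the lens list at 0.15. Several values rested on INK-ATTAC 2 and 5, the libraries farthest from the median Hbb-bs level. Without them r was 0.52 for the membrane list and 0.40 for the platelet list, 0.67 for heme synthesis against 0.19 with them, and 0.69 for retained transcripts against 0.41 with them. The endothelial list was then at -0.48, the RPE list at 0.50, the rod list at -0.01 and the lens list at 0.26. These values without the pair of libraries were not tested.

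The genes whose level over the 15 libraries was most like the mean standardised log2 CPM of the 6 members were taken from 13033 genes, by Pearson's r, as a description with no test. Cd33 came first at 0.74, and among the next were Dmac2 at 0.72, Mkrn1 at 0.71, Htr2b at 0.71, Nptxr at 0.71, Sh3bp5l at 0.70, Hexim2 at 0.70, Rbm12b1 at 0.69 and Zfp280c at 0.69. Mkrn1 is also on the list of transcripts that red cells retain. These genes were all below the lowest r between any 2 of the 6 members, 0.80. Their own log2 fold changes lay between -0.26 and 0.11.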

How the data were processed

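RNA-seq of RPE/choroid from 8 INK-ATTAC and 7 control libraries was used. Per the labels' protocols, RNA was taken up in TRIzol, purified on NucleoSpin columns and amplified as SMARTer cDNA, which holds amplified copies and no stated molecular identifiers. The submitters' processing notes name bcl2fastq, DRAGEN, edgeR, limma and GRCm38. The tool versions, the program that counted reads, its strand setting and its annotation are not given in the sources at hand. The authors deposited raw counts per gene, not normalized per the file headers. Of 40757 entries, 276 repeats with identical counts were collapsed, and 1 of these was a repeat of Hbb-bs. The authors' deposited table gives, per the file headers, a log2 fold change, p-value and adjusted p-value per gene.

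Counts were scaled by TMM and filtered with filterByExpr, which kept 17991 genes, and tested with edgeR 4.0.16 (R 4.3.3), two-sided, with Benjamini-Hochberg adjustment. Log2 CPM used a prior count of 2. Ratios had exact permutation tests, and correlations had 100000 permutations (scipy 1.17.1). The script was tested on simulated data. Alternatives were DESeq2 1.42.0, limma 3.58.1, other scaling and filters, a replicate block, each Xist class and each library left out. Xist class and the endothelial, rod and skeletal muscle levels were also each added to the fit as a covariate. Members and gene lists were chosen with earlier results of these data known. Named genes are the members, the up to 3 of highest mean CPM per list, and the 10 most correlated with the members; some are not reported here. Epb42 and Rhag, and the genes at 0, were named after their values were seen. Gene positions and coding sequences come from GENCODE and promoters from RefSeq.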

Additional observations from a re-analysis of the deposited data

Results flagged for a closer look

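In INK-ATTAC 2, Slc4a1 had 0 counts, a log2 CPM of -4.67 with the prior count. This value lay far from the other INK-ATTAC libraries, of which INK-ATTAC 3 was nearest at -2.31, so that the gap was 0.649 of the group's whole range. The size of that gap depends on the prior count, since the count is 0. It was the only such value among 48 sets of libraries checked, and chance gives about 1 in 20. The same library was the lowest for all 6 genes. Without it the log2 fold change of Slc4a1 was -0.76, on the same side of the threshold.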

How the results depend on the processing

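No alternative brought the group fold change of any of the 6 genes past the threshold, with adjusted p-values from 0.710 to 1.00. Their interactions with Xist class did not pass under any alternative either, with edgeR adjusted p-values from 0.635 to 0.997. Of 370 tested values under alternatives, 360 kept direction and side of the threshold and 10 reversed. Of 280 list medians, 33 changed sign, in 8 of 10 lists, so their signs are not stable, and 2 moved by more than 1 SD of the list's level. Of 56 counts of genes, 4 moved by over 1.5 times. In high Xist libraries alone the log2 fold change was 0.028 for Hba-a1, 0.032 for Hba-a2, 0.049 for Hbb-bs, 0.37 for Slc4a1, 0.030 for the alpha pair and 0.028 for the beta pair. The beta to alpha log2 ratio differed by 0.0032 in low Xist libraries alone and by -0.087 to 0.0026 with 1 library left out, the Hbb-bt share by 0.30 points in low Xist and the Hba-a2 share by -0.39 points in high Xist libraries. The cause was not tested. Genes called in the whole table were 0 with edgeR, 8 with DESeq2 and 2 with voom quality weights. At an unadjusted p they were 745, 1767 without a filter and 1123 without control replicate 3. Leaving out 1 library gave log2 fold changes of -0.79 to -0.16 for Hba-a1, -0.73 to -0.12 for Hba-a2, -0.76 to -0.16 for Hbb-bs, -0.75 to -0.16 for Hbb-bt and -0.92 to -0.29 for Alas2, each lowest without INK-ATTAC 4 and highest without control 1, and -1.14 to -0.65 for Slc4a1. The lymphocyte median was -0.79 in high and 0.43 in low Xist libraries. Same-numbered libraries correlated at -0.10 to 0.29, over 0.1 in 4 of 7 pairs, and 4 of 7 were closest to their own number. Numbers 1 to 3 and 5 to 7 also share their Xist class between the groups. These values therefore cannot tell whether the numbers pair the libraries. With the replicate block 0 genes were called and the estimates were -0.80, -0.75, -0.81, -0.84, -0.85 and -0.89 for Hba-a1, Hba-a2, Hbb-bs, Hbb-bt, Alas2 and Slc4a1. Slc4a1 has no value with CPM over 1 in 7 libraries. Its 0 to 55 counts per library limit its precision.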
